A study of Mus musculus with 6 samples.

Results

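The axon guidance ligands and receptors of the mouse dorsal root ganglion were taken as every protein-coding gene whose symbol names a semaphorin, plexin, neuropilin, ephrin, Eph receptor, slit, roundabout receptor (Robo), netrin, Unc5 receptor or Dcc. By this rule 67 of the 36793 genes in the deposited table were members, and 65 of them had enough counts to be tested. Lumbar ganglia were sequenced in 6 libraries labelled as mice 1 to 6, of which 3 were wild type and 3 carried the label of an NMDA receptor knockout. By the labels mice 1 to 3 are wild type and mice 4 to 6 knockout. The labels give no strain, age, sex or batch, and nothing on how the deletion was made, while the series title places the deletion of the GluN1 subunit gene in Schwann cells, which are glia of peripheral nerve. Libraries are called WT 1 to WT 3 and KO 4 to KO 6.

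Axon guidance molecules steer growing axons by attraction or repulsion. Semaphorins act through plexins, and the secreted semaphorins of class 3 mostly need a neuropilin as co-receptor. Ephrins sit on cell membranes and bind Eph receptor tyrosine kinases, the A type of ephrin by a lipid anchor and the B type by a transmembrane segment. Slits repel axons through Robo receptors, and netrins attract through Dcc or repel through Unc5 receptors. In peripheral nerve the same molecules also act between Schwann cells, fibroblasts, vessels and regrowing axons.

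Total expected counts per library ranged from 28526704 to 36249163. Over 10258 genes, KO 5 and KO 6 differed by a mean chi-square of 1.15 per gene with 0 genes differing, against 13.2 to 104 for the other pairs of libraries. KO 5 and KO 6 therefore differed by about the sampling noise and were counted as 1 sample by summing their counts, which leaves 3 wild-type and 2 knockout samples. Grin1, the targeted gene, was at 68.6, 114.2 and 74.4 CPM (counts scaled to library size by TMM, per 1e6) in WT 1 to 3 and at 81.5, 116 and 116 CPM in KO 4 to 6, so the whole-tissue level does not check the labels. The labels name the cell type as Schwann cells, but 8 pan-neuronal markers summed to 11790 to 14600 TPM (transcript abundance allowing for length, per 1e6) per library and 8 markers of myelinating Schwann cells to 4969 to 6739 TPM. The values are those of whole ganglion, in which fewer cells of a type and less RNA per cell cannot be told apart.

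The 3 members with the smallest p-values and a listed start site were Plxnb3, Epha3 and Plxnc1. Their promoters, 250 bases before to 50 after the RefSeq start on GRCm38.p6, are shown for that rank alone. Capitals mark CpG dinucleotides.
Plxnb3 (chrX:73756853-73757152, plus strand): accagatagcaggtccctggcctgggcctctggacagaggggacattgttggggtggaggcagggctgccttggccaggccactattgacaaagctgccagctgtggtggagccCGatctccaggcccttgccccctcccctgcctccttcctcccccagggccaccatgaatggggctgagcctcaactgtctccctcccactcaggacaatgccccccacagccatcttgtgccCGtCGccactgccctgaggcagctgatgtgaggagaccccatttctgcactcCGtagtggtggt
Epha3 (chr16:63864126-63864425, minus strand): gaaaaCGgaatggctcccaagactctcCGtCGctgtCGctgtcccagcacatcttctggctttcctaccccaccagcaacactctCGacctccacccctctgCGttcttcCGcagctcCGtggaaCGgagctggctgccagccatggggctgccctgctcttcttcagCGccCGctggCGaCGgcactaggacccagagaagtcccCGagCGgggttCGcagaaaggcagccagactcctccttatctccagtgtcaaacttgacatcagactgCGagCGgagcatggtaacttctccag
Plxnc1 (chr10:94944796-94945095, minus strand): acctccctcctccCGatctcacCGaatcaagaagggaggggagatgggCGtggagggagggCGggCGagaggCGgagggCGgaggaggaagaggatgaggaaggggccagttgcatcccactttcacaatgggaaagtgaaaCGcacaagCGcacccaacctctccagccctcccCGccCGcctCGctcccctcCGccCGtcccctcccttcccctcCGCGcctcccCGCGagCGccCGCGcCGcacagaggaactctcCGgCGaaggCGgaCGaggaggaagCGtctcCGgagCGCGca
The windows hold 4, 18 and 30 CpG dinucleotides. In RefSeq 57 of the 67 members matched by symbol, with 73 promoters in all. The median member promoter held 20 CpG dinucleotides and 64.3% G and C, against 7 and 52.7% over all 32851 promoters. A GC box (GGGCGG, either strand) was in 71.2% of the member promoters and in 35.7% of all promoters. A TATA box (TATAAA, either strand) was in 2.74% and 13.6%. The AP-1 motif (TGANTCA) was in 4.11% and 7.81%, in windows of Sema4c, Sema4d and Sema6b, and the CRE motif (TGACGTCA) in 1.37% and 1.79%, in a window of Epha2. The 3 promoters printed have neither AP-1, CRE nor TATA letters, and the Plxnc1 window has 4 GC boxes.

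Levels were compared between genes on the TPM scale, which allows for transcript length. Of the 67 members, 30 were at 10 TPM or more on the mean over samples, 30 between 1 and 10 TPM and 7 below 1 TPM. The highest mean over samples was that of Plxnc1, the plexin that binds the membrane-anchored semaphorin Sema7a, with 110.3, 119 and 111 TPM in WT 1 to 3 and 68.1, 90.5 and 90.5 TPM in KO 4 to 6. Robo2, a slit receptor, had 98.0, 92.3 and 99.8 TPM in wild type and 77.0, 84.0 and 83.0 TPM in knockout. Sema3b, a secreted semaphorin, had 64.0, 98.0 and 71.9 TPM in wild type and 94.5, 113 and 113.5 TPM in knockout. In each wild-type library Plxnc1 was the highest of these 3, and in each knockout library Sema3b was. Sema3b lay below Robo2 in WT 1 and WT 3 and above it in the other 4 libraries.

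**Figure D1:**
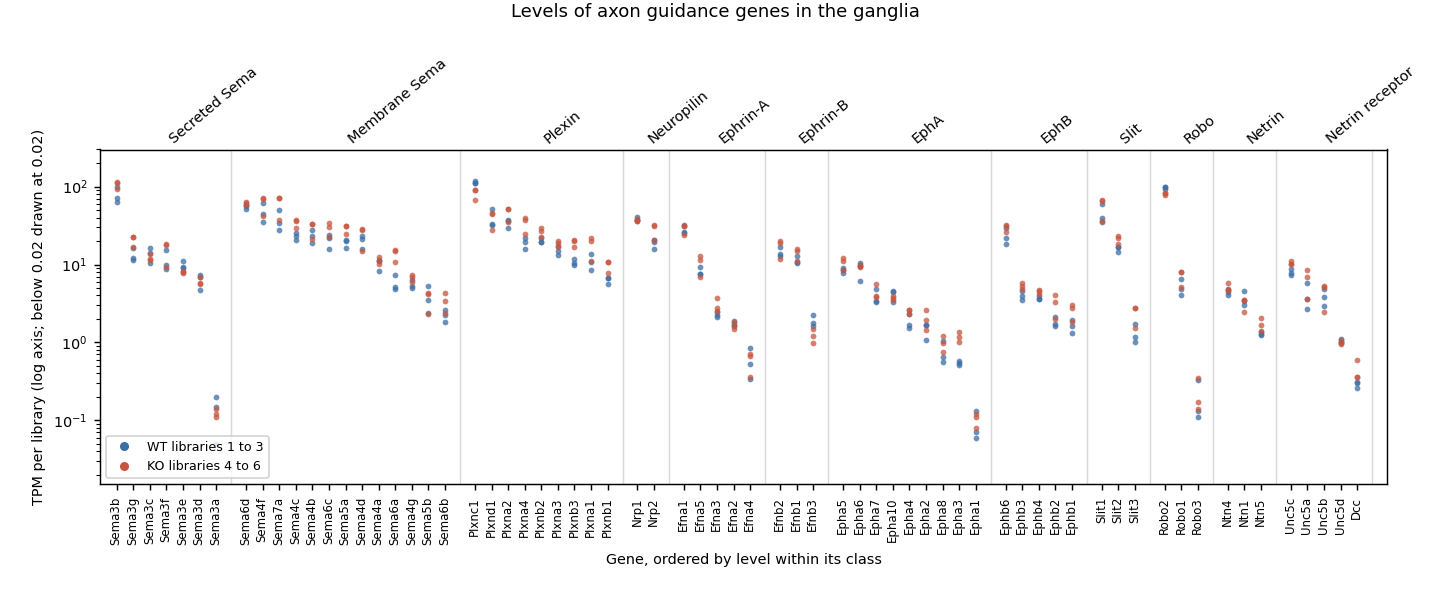
Level of each of the 67 axon guidance genes in TPM on a log axis, by class of ligand or receptor. Each point is 1 library, blue for the 3 wild-type and red for the 3 knockout libraries. Plxnc1, Robo2 and Sema3b lie highest, and Epha1, Sema3a and Robo3 lie lowest.

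Among membrane-bound semaphorins Sema6d was at 57.5, Sema4f at 51.0 and Sema7a at 44.1 TPM on the mean over samples. Their order differed between libraries, since Sema4f lay above Sema6d in WT 2, KO 5 and KO 6, and Sema7a lay above Sema6d in KO 5 and KO 6. The plexins after Plxnc1 were Plxnd1 at 37.9 and Plxna2 at 37.6 TPM, and these 2 cannot be ranked, since the Plxnd1 wild-type SD was 10.9 TPM. Nrp1, the neuropilin that serves Sema3a, was at 38.5 ± 2.08 TPM (SD, n = 3) in wild type, whereas Sema3a itself had 4 to 14 counts per library. In these ganglia Nrp1 was thus abundant and Sema3a near the limit of detection. The other class 3 semaphorins were higher, from Sema3d at 6.32 to Sema3b at 88.3 TPM on the mean over samples.

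Among slits, Slit1 was highest at 47.2 TPM, with Slit2 at 17.8 and Slit3 at 1.64 TPM. Robo1 was at 5.74 TPM and Robo3, which modulates Robo signalling at the midline, had 5 to 12 counts per library. Netrins were scarce, with Ntn4 at 4.63, Ntn1 at 3.38 and Ntn5 at 1.43 TPM. Their receptor Dcc was at 0.342 TPM, while the repulsive netrin receptor Unc5c was at 8.91 TPM. Summed over the class, wild-type Robo receptors reached 102 ± 3.01 TPM (SD, n = 3) and netrins 9.37 ± 1.14 TPM (SD, n = 3).

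Ephrins were led by Efna1 at 27.7 and Efnb2 at 15.04 TPM. The highest Eph receptors were Ephb6, which lacks kinase activity, at 25.4 TPM, and Epha5 at 9.11 TPM, close to Epha6 at 9.03 TPM, which lay above Epha5 in WT 1, WT 3 and KO 4. Epha1 had 3 to 7 counts per library and, with Robo3, was not tested. The Efna1, Efna3 and Efna4 genes lie side by side on chromosome 3 (89271733 to 89281142, 89313899 to 89322965 and 89333390 to 89338028, GRCm38) but differed in level, at 27.7, 2.51 and 0.586 TPM. Sema3b and Sema3f both lie on chromosome 9 (107597674 to 107609229 and 107681500 to 107710475) and were at 88.3 and 12.2 TPM.

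Knockout and wild-type ganglia were then compared to see whether guidance genes differ with the deletion. Sema6a, Epha3 and Plxnb3 were higher in every knockout library than in any wild-type library, by 2.30, 2.13 and 1.75-fold. Plxnc1 and Robo2, 2 of the 3 members with the highest mean level, were lower in every knockout library, by 1.43 and 1.19-fold. None of the 65 members passed the edgeR quasi-likelihood test at a Benjamini-Hochberg adjusted p of 0.05, where 0.0952% of the 16810 genes tested did (0.0595% higher and 0.0357% lower). None passed at 0.10 either, where 0.178% of all genes did. The smallest adjusted p of a member was 0.188. At an unadjusted p under 0.05 there were 13 members, 11 higher (16.9% of members, against 5.16% of all genes) and 2 lower (3.08%, against 4%). In DESeq2 3 members passed, Plxnb3, Sema6a and Epha3, where 1.52% of all genes did, and the same 3 passed in edgeR with KO 5 and KO 6 kept as separate libraries, where 0.871% of all genes did. With no filter on low counts Sema6a and Plxnb3 passed, where 0.323% of all genes did.

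Plxnb3 encodes plexin-B3, a receptor of Sema5a, and lies on chromosome X (73757090 to 73772514, GRCm38). It had 25, 27.1 and 29.9 CPM in WT 1 to 3, against 44.4, 50.8 and 50.9 CPM in KO 4 to 6. The 3 knockout libraries lay close together, well clear of the wild type. Its log2 fold change of 0.81 (SE 0.13) had an edgeR adjusted p of 0.188, and over the alternatives it ran from 0.70 to 0.90.

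Epha3, an Eph receptor that binds A-type ephrins, on chromosome 16 (63543534 to 63864175), had 1.32, 1.42 and 1.47 CPM in WT 1 to 3, against 2.72, 3.47 and 2.94 CPM in KO 4 to 6. These levels rest on 43 to 45 counts per wild-type library and 80 to 121 per knockout library, and the groups did not overlap. Its log2 fold change of 1.09 (SE 0.20) had an edgeR adjusted p of 0.235, and on the log2(TPM + 1) scale, which shrinks low genes, it was 0.47.

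Sema6a, a transmembrane semaphorin that binds the plexins A2 and A4, on chromosome 18 (47235598 to 47368870), had 11.9, 18.3 and 11.9 CPM in WT 1 to 3, against 27.3, 36.9 and 37.2 CPM in KO 4 to 6. WT 2 was the highest wild-type library and KO 4 the lowest knockout library, and a gap remained between them. Its log2 fold change of 1.20 (SE 0.24) had an edgeR adjusted p of 0.249, and it was 0.96 without KO 5 and KO 6. Of its plexins, Plxna4 on chromosome 6 had 81.1, 114 and 98.8 CPM in WT 1 to 3, against 129, 191 and 198 CPM in KO 4 to 6, a log2 fold change of 0.73 (SE 0.21, edgeR adjusted p = 0.393) that was 0.40 without KO 5 and KO 6. Plxna2 was at 0.35 on the log2 scale and its groups overlapped.

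**Figure D2:**
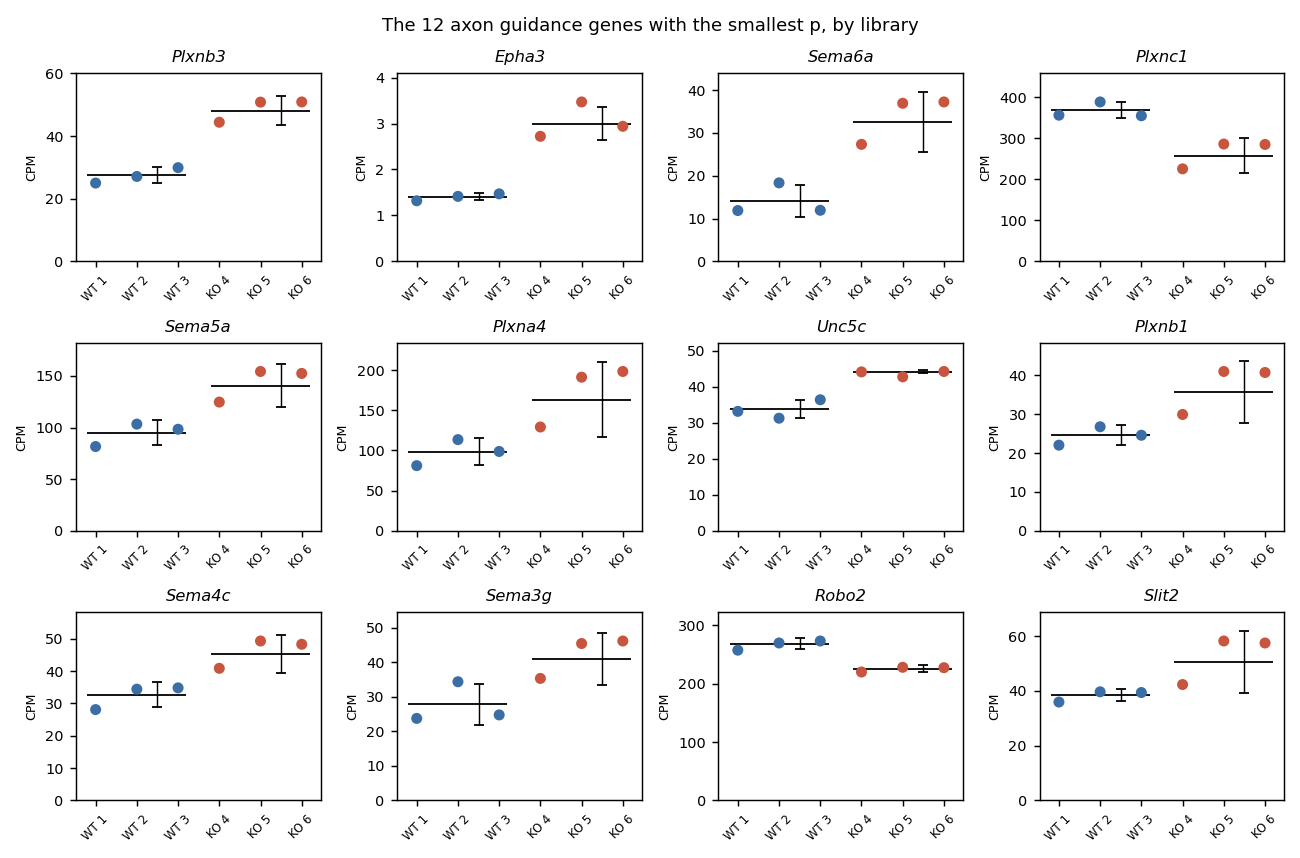
CPM in each library for the 12 axon guidance genes with the smallest p-values. Points are libraries (blue wild type, red knockout), horizontal lines the means and bars the SD over 3 wild-type and 2 knockout samples, KO 5 and KO 6 counting as 1. The 12 genes were picked by p between these same groups, which favours groups that do not overlap. In all 12 the groups do not overlap, as in 27.4% of all genes tested. Plxnc1 and Robo2 are lower and the other 10 higher in the knockout.

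Of the 12 genes with the smallest p-values, the 2 at lower level were receptors. Plxnc1, on chromosome 10 (94790866 to 94944835), had 357, 389 and 355 CPM in WT 1 to 3, against 226, 286 and 285 CPM in KO 4 to 6. KO 4 stood lowest and the 3 wild-type libraries lay close together. Its log2 fold change of -0.52 (SE 0.14) had an edgeR adjusted p of 0.354. Its ligand Sema7a had 41.9, 76.0 and 49.8 CPM in WT 1 to 3, against 57.3, 104 and 104.5 CPM in KO 4 to 6, with KO 4 inside the wild-type range. The log2 fold change of Sema7a was 0.54 (SE 0.33).

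Robo2, on chromosome 16 (73891839 to 74411825), had 257, 269.7 and 273 CPM in WT 1 to 3, against 220.0, 228 and 227 CPM in KO 4 to 6. The groups, of 3 wild-type and 2 knockout samples, were separate, but the log2 difference was small, -0.25 (SE 0.10, edgeR adjusted p = 0.53). Robo1, by contrast, was at 0.36 (SE 0.24) and its groups overlapped. All 3 slit ligands were at positive values. Slit2 had 36.0, 39.7 and 39.4 CPM in WT 1 to 3, against 42.4, 58.3 and 57.5 CPM in KO 4 to 6, a log2 fold change of 0.39 (SE 0.16), which was 0.14 without KO 5 and KO 6 and 0.60 without KO 4. For Slit3 the value was 0.79 (SE 0.36), and for Slit1 0.27 (SE 0.34), which turned to -0.23 without KO 5 and KO 6.

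In the plexin-B family, whose ligands include semaphorins of classes 4 and 5, all 3 members were at positive values. Plxnb1 had 22.0, 26.8 and 24.6 CPM in WT 1 to 3, against 29.9, 41.0 and 40.7 CPM in KO 4 to 6. Its expected counts were not all whole, so RSEM shared some of its reads. The log2 fold change of Plxnb1 was 0.54 (SE 0.17), and 0.29 without KO 5 and KO 6. Plxnb2 was at 0.36 on the log2 scale and overlapped between groups. Sema4c, a ligand of plexin-B2, had 28.1, 34.4 and 34.8 CPM in WT 1 to 3, against 40.8, 49.3 and 48.3 CPM in KO 4 to 6. Sema5a, a transmembrane semaphorin with thrombospondin repeats, had 81.6, 103 and 98.3 CPM in WT 1 to 3, against 125, 154 and 152 CPM in KO 4 to 6.

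Among secreted semaphorins Sema3g, which acts through Nrp2, had 23.8, 34.4 and 24.8 CPM in WT 1 to 3, against 35.4, 45.5 and 46.2 CPM in KO 4 to 6. WT 2 and KO 4 were almost level, and the log2 fold change of 0.56 (SE 0.20) was 0.35 without KO 5 and KO 6. Nrp2 itself was at a log2 fold change of 0.44 (SE 0.19), and Nrp1 at -0.08 (SE 0.10). Sema3e, the ligand of plexin-D1, was at -0.26 (SE 0.13), and Plxnd1 at -0.09 (SE 0.27). Sema3b, the most abundant ligand, was at 0.41 (SE 0.20), or 0.63 without WT 2, and WT 2 at 135.6 CPM lay above KO 4 at 133 CPM. By library Nrp1 had 102, 101 and 109 CPM in WT 1 to 3, against 99.5, 95.1 and 100.1 CPM in KO 4 to 6, separate groups with a small gap. Sema6d, the membrane semaphorin with the highest mean level, had 142, 160.0 and 156 CPM in WT 1 to 3, against 164.5, 169 and 170.2 CPM in KO 4 to 6, a log2 fold change of 0.13 (SE 0.11).

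Of the netrin receptors Unc5c, on chromosome 3 (141465216 to 141834924), had 33.2, 31.3 and 36.4 CPM in WT 1 to 3, against 44.1, 42.8 and 44.2 CPM in KO 4 to 6. All knockout libraries were above all wild-type libraries, by a log2 fold change of 0.39 (SE 0.11, edgeR adjusted p = 0.394). Dcc was at 0.59 (SE 0.29) on 20 to 49 counts per library. The values of Unc5b and Unc5d were -0.01 and -0.05, and Ntn1 was at -0.30 (SE 0.20). Ntn4, the most abundant netrin, had 7.25, 6.79 and 7.86 CPM in WT 1 to 3, against 8.00, 7.51 and 9.32 CPM in KO 4 to 6, with KO 5 inside the wild-type range.

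The Eph receptors leaned to positive values, in 7 of 8 tested EphA and 5 of 5 EphB members. The tested members as a whole did so too, in 51 of 65. Ephb6 turned from 0.25 to -0.04 without KO 5 and KO 6. Ephb3 had 6.11, 7.51 and 6.43 CPM in WT 1 to 3, against 8.78, 8.49 and 8.13 CPM in KO 4 to 6, a log2 fold change of 0.36 (SE 0.15, edgeR adjusted p = 0.542). Ephb6 had 24.0, 38.8 and 29.0 CPM in WT 1 to 3, against 29.8, 44.7 and 40.1 CPM in KO 4 to 6, and KO 4 lay inside the wild-type range. Epha5, a receptor of A-type ephrins, had 18.1, 17.5 and 19.2 CPM in WT 1 to 3, against 18.8, 25.3 and 23.4 CPM in KO 4 to 6, again with KO 4 inside. The log2 fold change of Epha5 was 0.25, against 0.04 without KO 5 and KO 6 and 0.42 without KO 4. Epha4, a receptor for both types of ephrin, was at 0.41 (SE 0.20). The ephrins gave a mixed picture, with Efna3 at 0.39, Efnb2 at 0.14 (-0.21 without KO 5 and KO 6), Efna1 at -0.01 and Efnb3 at -0.56, the last with SE 0.26 on 44 to 109 counts per library. Efna1 had 16.7, 21.1 and 16.6 CPM in WT 1 to 3, against 15.9, 20.1 and 19.8 CPM in KO 4 to 6, and Efnb2 had 25.1, 32.8 and 25.6 CPM, against 24.1, 37.5 and 36.5 CPM. For both ephrins KO 4 was the lowest of the 6 libraries. The role medians on the log2 scale were 0.30 for EphA and 0.36 for EphB receptors, against 0.05 for ephrin-A and 0.14 for ephrin-B ligands. Over all tested members the median was 0.28.

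**Figure D3:**
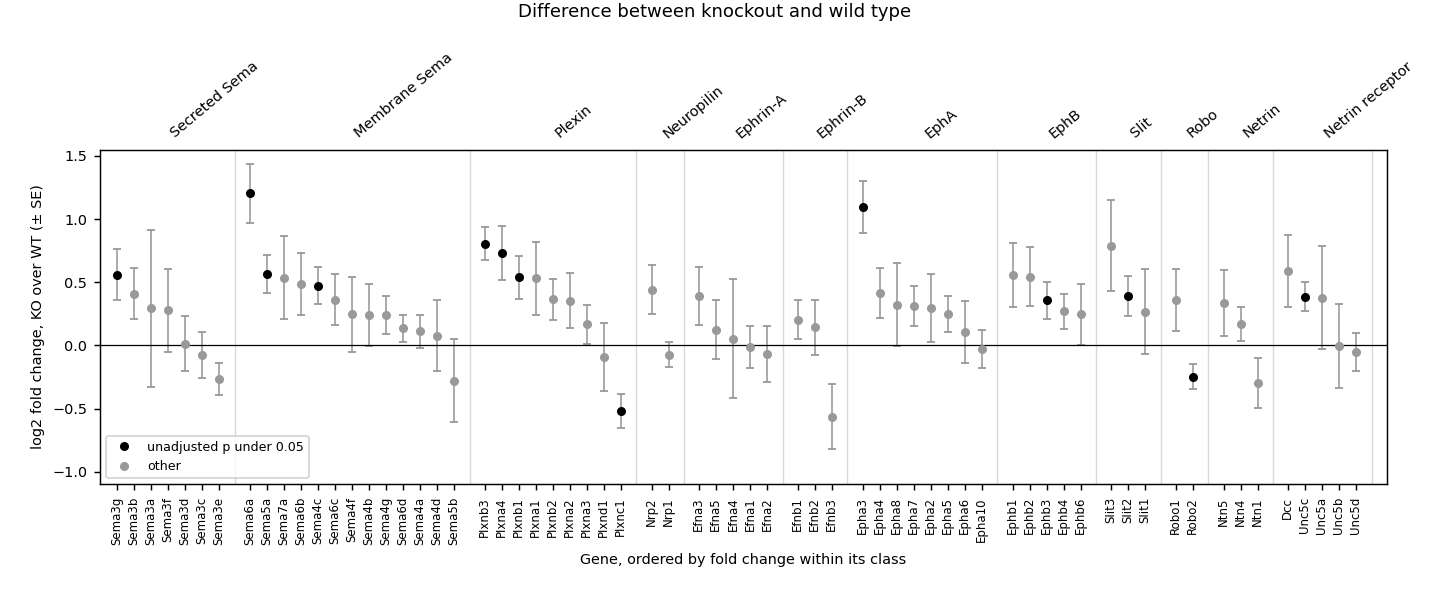
Log2 fold change of knockout over wild type for the 65 tested genes, by class, with bars for the standard error. Black points have an unadjusted p under 0.05 in edgeR, and no gene passes after adjustment. Sema6a and Epha3 are highest, and Efnb3 and Plxnc1 lowest.

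Over the 65 tested members the median log2 fold change was 0.28, where the median of all genes was 0.00. With GC correction the member median was 0.17. Positive values were found for 51 members (78.5%, against 50.2% of all genes) and negative values for 14. Of the members 23.1% were beyond 0.5 on the log2 scale in either direction, against 11.2% of all genes. The groups did not overlap for 25 members (38.5%, against 27.4% of all genes), 20 higher (30.8%, against 11.8% of all genes) and 5 lower (7.69%, against 15.5%). The 5 lower were Plxnc1, Robo2, Efnb3, Sema3e and Nrp1.

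The shift was uneven between libraries. The median log2 ratio to the wild-type mean over the 65 members was -0.15 in WT 1, 0.14 in WT 2 and -0.01 in WT 3, and it was 0.10 in KO 4, 0.43 in KO 5 and 0.40 in KO 6. Across all genes these medians lay between -0.02 and 0.00. WT 2 was the highest wild-type library for 43 of the 65 members and WT 1 the lowest for 43. KO 4 lay below both KO 5 and KO 6 for 49 members and within the wild-type range for 31. These counts by library were not made over all genes, so they have no background share.

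Slit1, a midline repellent with this pattern, had 67.8, 132 and 89.7 CPM in WT 1 to 3, against 82.5, 149 and 149 CPM in KO 4 to 6. WT 2, KO 5 and KO 6 were high, and the other 3 libraries low. Without KO 5 and KO 6 the member median was 0.10, with 41 of 65 members positive, and without KO 4 it was 0.47, with 53 of 65. The size of the shift thus rests largely on the 1 knockout sample formed by KO 5 and KO 6.

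**Figure D4:**
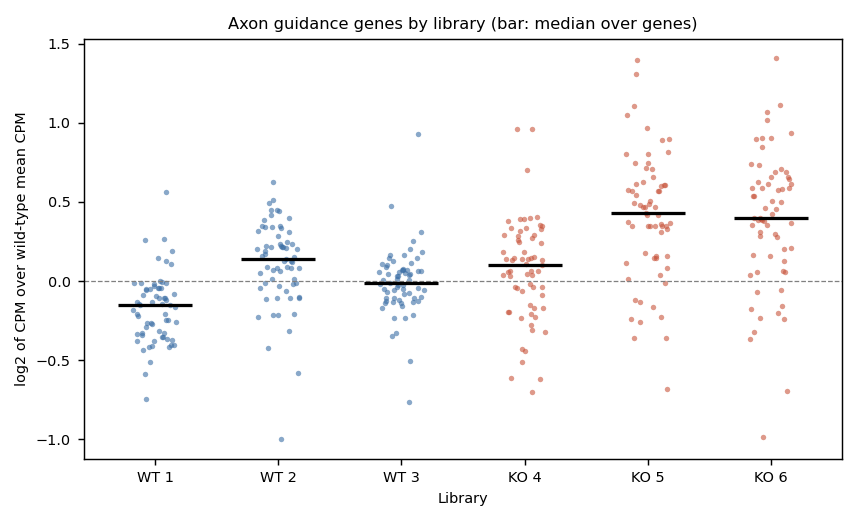
Log2 ratio of CPM in each library to the wild-type mean, 1 point per tested axon guidance gene and a bar at the median over the 65 genes. The bars sit at -0.15, 0.14 and -0.01 in WT 1 to 3 and at 0.10, 0.43 and 0.40 in KO 4 to 6, so WT 2 and KO 4 lie close to each other.

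Marker lists of the cells in the ganglion moved with some of this. The summed level of the 8 pan-neuronal markers was 11790, 14180 and 12500 TPM in WT 1 to 3 and 13000, 14590 and 14600 TPM in KO 4 to 6, with the same 3 libraries highest. Their median log2 fold change was 0.06, with 5 of 8 positive. WT 2, KO 5 and KO 6 were also highest for Uchl1, Rbfox3, Snap25 and Prph, but not for Tubb3, Elavl4, Syt1 and Stmn2. Syt1 was lower in every knockout library than in any wild-type library, at -0.55 (SE 0.10). Markers of non-myelinating Schwann cells summed to 949, 1291 and 1140 TPM in WT 1 to 3, against 1108, 1419 and 1413 TPM in KO 4 to 6. This sum was highest in WT 2, KO 5 and KO 6, and 5 of 6 markers were positive. Ngfr, L1cam and Cdh2 were highest in these libraries, but Ncam1 and Gfra3 were not. Scn7a, at a log2 fold change of -0.27, was lowest in them. L1cam is also among the other pathway genes below. All 6 satellite glia markers were positive, with sums of 5300 to 5715 TPM in wild type and 5929 to 6446 TPM in knockout, as were the 4 tested of 6 bone and cartilage markers. None of these passed the edgeR test. The 8 endothelial markers summed to 66.2 to 74.7 TPM in wild type and 89.4 to 95.8 TPM in knockout, and the 8 markers of myelinating Schwann cells to 4969 to 5833 and 6503 to 6739 TPM. All 8 of each list were positive, none passed the edgeR test, and no marker of these 3 lists was at 0. The 7 fibroblast markers summed to 3276, 2431 and 3093 TPM in wild type and 2997, 2304 and 2262 TPM in knockout, a sum carried by Apod and Dcn. Of these 7, 3 were positive (Col1a1 at 0.61, Col1a2 at 0.43 and Col3a1 at 0.63, each with groups that did not overlap) and 4 negative, and none passed the edgeR test. The 6 mural cell markers summed to 132.9 to 176.5 TPM in wild type and 104 to 109.8 TPM in knockout. Of these, Rgs5 was negative, at -0.79 (SE 0.15), and 5 were positive. The 8 macrophage markers summed to 74.05 to 92.5 TPM in wild type and 73.37 to 95.66 TPM in knockout, with 3 positive and 5 negative. No marker of either list passed the edgeR test. The 5 erythroid markers summed to 59730 TPM in KO 4 against 12740 to 24470 TPM elsewhere, and 6 muscle markers to 70.6 TPM against 6.02 to 24.7 TPM. The 10 markers of injured sensory neurons summed to 425, 470.2 and 459 TPM in WT 1 to 3 and 991, 998 and 982 TPM in KO 4 to 6. All 10 had positive values, with a median log2 fold change of 1.5, and 5 passed the edgeR test (Atf3, Sprr1a, Gal, Npy and Ecel1). The groups overlapped for Jun. The part of these in the member values was not tested.

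The other genes of the pathway, 65 co-receptors and signalling proteins, had a median log2 fold change of 0.17, with 52 positive and 13 negative. None passed the edgeR test, and 12 had an unadjusted p under 0.05 (18.5%, against 9.16% of all genes), 11 higher and 1 lower. Chl1, an adhesion molecule that joins semaphorin receptor complexes, averaged 149 ± 17.8 CPM (SD) over 3 wild-type samples and 225.5 ± 15.7 CPM (SD) over 2 knockout samples. Its log2 fold change was 0.60 (SE 0.13, edgeR adjusted p = 0.282). Chl1 was the 1 of the 65 that passed in DESeq2, where 1.52% of all genes did. Draxin, a secreted repellent that binds Dcc, was at 1.02 (SE 0.26), and at 0.60 on the log2(TPM + 1) scale. Dock1, a Rac activator downstream of Dcc, was at 0.61, Flrt3, which binds Unc5 receptors, at 0.56 and the adaptor Nck2 at 0.53. Ngef, an exchange factor that acts behind EphA receptors, was lower, averaging 5.15 ± 0.948 CPM (SD) over 3 wild-type and 2.41 ± 1.03 CPM (SD) over 2 knockout samples, a log2 fold change of -1.06 (SE 0.31, edgeR adjusted p = 0.393) that was -1.61 without KO 5 and KO 6.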

How the data were processed

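The submitters' processing notes name Trimmomatic 0.38, STAR 2.6.0a, RSEM 1.3.0 and the build GRCm38 for the 6 libraries. Annotation release and strand setting: not given in the sources used here. For each library the authors deposited RSEM expected counts (estimated counts, not normalized), TPM and isoform-weighted gene lengths. Symbols, biotypes and coordinates came from GENCODE vM21 on GRCm38, which matched 35243 of 36793 gene identifiers. Promoters came from RefSeq on GRCm38.p6. Ntn3 is not analysed here.

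Expected counts were rounded, filtered with filterByExpr, scaled by TMM and fitted in R 4.3.3 by edgeR 4.0.16 (quasi-likelihood F test, two-sided), with genotype as the only term and Benjamini-Hochberg adjustment over 16810 genes. A standard error (SE) is the size of the log2 fold change over the root of its F value. CPM by library were scaled over 6 libraries, and fold changes, means and SDs over 5 samples. KO 5 and KO 6 were summed, and their TPM averaged. The labels do not say that samples are separate animals beyond their numbers, so p-values measure only the spread between these samples, which may be technical. The fit was tested on simulated data of 5 samples and 16810 genes. It recovered 85 of 100 genes changed by 1 on the log2 scale and 99 of 100 changed by 2, with 17 false calls. Whether the simulated spread matches that of these libraries was not tested. In the data Sema6a at 1.20 and Epha3 at 1.09 did not pass. The simulated rates are therefore no measure of how many changed members the fit would find. Alternatives used DESeq2 1.42.0 and limma 3.58.1.

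Named with values in every library were members with an adjusted p under 0.10 (none), the 12 with the smallest p and the one of each class with the highest mean TPM over samples; other members named were chosen after their values were seen. Members and lists were chosen with earlier results of these data known. Expected counts of Plxnb1, Efna3, Ntn5, Efna5 and Epha1 were not whole within 1e-09 in at least 1 library, so RSEM shared some of their reads. Genes on the opposite strand overlap Plxna4, Unc5c, Plxnb1 and others. With at most 55 counts, D430040D24Rik opposite Sema4c (at least 937 counts) was the highest of those opposite the 12 genes of smallest p. Among other members, Hk3 opposite Unc5a (at least 138 counts) reached 160 counts and Sec1 opposite Ntn5 (at least 26) reached 23. Zyx opposite Epha1 (at least 3 counts) reached 2634. The part of such genes in the member counts was not tested.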

Additional observations from a re-analysis of the deposited data

How the results depend on the processing

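No paired analysis was possible because no mouse number occurs in both groups. The count of genes past the threshold, 16 over all genes, became 144 with 6 separate libraries, 81 with no filter on low counts, 255 in DESeq2, 27 in limma-voom with quality weights and 28 with GC correction, and 7 to 14 without single replicates. Members past the threshold, 0 in edgeR, became 3 with 6 separate libraries, 2 with no filter (Sema6a and Plxnb3, where 0.323% of all genes passed) and 3 in DESeq2, and stayed 0 in the other alternatives and without each replicate. In DESeq2 1 of the 65 other pathway genes passed, Chl1, where 1.52% of all genes did. The cause was not tested, except that separate libraries count the near-identical pair as 2 animals. The member median of 0.28 ran from 0.23 to 0.47 without single replicates, was 0.10 without KO 5 and KO 6, and was 0.17 with GC correction. Without KO replicates 5 and 6 the value turned to -0.038 for Ephb6, -0.23 for Slit1 and -0.21 for Efnb2. Efna1, at -0.01, turned to 0.035 with 6 separate libraries, 0.0012 with KO 5 alone, 0.000395 with DESeq2 size factors in edgeR, 0.0075 with no filter, 0.00065 in DESeq2, 0.074 in limma-voom, and ran from -0.070 to 0.14 without single replicates (0.11 without WT 2, 0.14 without KO 4). For single genes, 358 other values had an unchanged sign and call, and 9 gained the call. Leaving out KO 4, or KO 5 and KO 6, left 1 knockout sample, assumed to vary like the wild type. Epha1, Robo3, Sema3a and Efna4, with at most 20 counts per library, are limited by depth.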

Other observations

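The deposited gene length is the mean over a gene's transcripts weighted by their estimated shares, so it moves with isoform use. It was equal in all 6 libraries for 21 of the 67 members and differed by over 1.1 times for 21. Between KO 5 and KO 6, which agree in counts within about the sampling noise, it still differed by over 1.1 times for 10 members. For Epha7, an Eph receptor with a known short form, the length was 5341 bases in KO 5 and 3727 in KO 6 at 9.06 and 9.26 CPM, and the deposited TPM were 3.79 and 5.60. For Unc5a the lengths were 3779 and 2806 bases at 11.7 and 10.5 CPM, with 6.94 and 8.53 TPM. Ephb2, a receptor of B-type ephrins, had 4839 and 3688 bases at 7.11 and 6.66 CPM, with 3.29 and 4.07 TPM. For Unc5a and Ephb2 the library lower in TPM was the higher in CPM, and for Epha7 the 2 libraries differed more in TPM than in CPM.

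The coding neighbours on chromosome 3 did not share a value: the log2 fold change of knockout over wild type was -0.01 for Efna1, 0.39 for Efna3 and 0.05 for Efna4. The median GC content of tested members was 56.0%, against 50.7% over all genes tested. Members at or below their median GC content had a median log2 fold change of 0.29, and those above it 0.27. With GC correction of the fit the median over all tested members was 0.17, against 0.28 without it.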
